A study of Mus musculus with 20 samples.

Results

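The brains compared were those of 5 mice whose labels read APOE4D and 5 whose labels read APOE4, both with the genotype field APOE4. They were chosen as the count columns that start with E4D_ and with E4_, which are 10 of the 20 libraries at 18 months of age (MO). The other 10 are 5 APOE3 and 5 APOE2 libraries. Each library was RNA-seq of the frozen left hemi-brain of 1 female mouse on a C57bl/6 background, and each mouse carried its own ID.

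In these targeted replacement mice the human APOE gene stands in place of mouse Apoe, behind the endogenous murine promoter, and every mouse was homozygous. The APOE4D mice were therefore labelled with the same allele, sex, tissue and age as the APOE4 mice, and the sources used here do not say what the D stands for. The comparison asks how far 2 sets of mice with the same genotype label differed, and how far mice differed within each set. Apolipoprotein E carries cholesterol and other lipids from astrocytes and microglia to neurons, and the human APOE4 allele raises the risk of Alzheimer's disease in old age. A count of mRNA over a whole hemi-brain averages many cell types. Clock genes cycle over the day in nearly every tissue. In bulk tissue, fewer cells of a type and less RNA per cell cannot be told apart.

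The APOE4D libraries held 32404258 to 37947330 reads assigned to genes and the APOE4 libraries 33032138 to 46887242. Markers of neurons, astrocytes, oligodendrocytes, microglia, endothelium and choroid plexus were present in all 10. The cerebellar markers Pcp2 and Gabra6 were at 0 to 0.189 CPM (counts scaled to the library total) and Cbln3 at 0.349 to 0.63 CPM, so cerebellum was close to absent from tissue labelled as brain. Xist, which marks female cells, was at 375 to 553 CPM in the 10 libraries, while 1 APOE3 library, which entered the fit through the shared spread, held 1.11 CPM. Without that library the count of DEGs between APOE4D and APOE4 was the same.

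No gene passed the threshold between APOE4D and APOE4 brains. Of 21041 genes tested across all 20 libraries with edgeR's quasi-likelihood test, 0 had an adjusted p under 0.05, and the smallest adjusted p was 0.0808. At unadjusted p under 0.05, 1111 genes were higher in APOE4D (5.28% of those tested) and 1182 were lower (5.62%). The count differed between fits. In a fit of the 10 libraries alone, 210 genes passed (1% of 20951), 86 higher (0.41%) and 124 lower (0.592%), with a median size of 0.19 on the log2 scale. That fit also had its own filter and scaling, and which of these choices moved the count was not tested. DESeq2 on the 20 libraries called 34 genes (0.162%), of which 31 were among the 210, and limma-voom called 0. The precision depended on the level of expression. The 95% interval of the fold change lay within 1.5-fold for 99.6% of the 6551 genes at or above 5 in mean log2 CPM, against 21.4% of the 6983 genes with a mean log2 CPM under 1. In no gene of the first kind was the fold change itself beyond 1.5.

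The direction of these small shifts went with the base composition and length of the transcript. Well-expressed genes were split into 5 bins of equal size by GC content and again by length. In the bin with the lowest GC content, 16 were higher and 465 lower in APOE4D at unadjusted p under 0.05. In the bin with the highest GC content, 406 were higher and 36 lower. The median log2 fold change by bin, from low to high GC, was -0.065, -0.023, 0.0026, 0.025 and 0.049. Across length it ran the other way, with a median of 0.033 in the shortest bin and -0.043 in the longest. The 210 genes called in the fit of 10 libraries were divided in the same manner, with 72 of the 122 lower genes that had a GC value in the lowest GC bin and 43 of 82 higher genes in the highest. With the trend over length and GC removed from that fit, 46 genes passed (0.22%), 38 of them among the 210. RNA quality and library preparation were not given per mouse, and their part in the trend was not tested. Removing it from the fit of 20 libraries left 4.96% of all genes higher and 4.12% lower at unadjusted p under 0.05, and list medians are given before and after its removal.

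**Figure D1:**
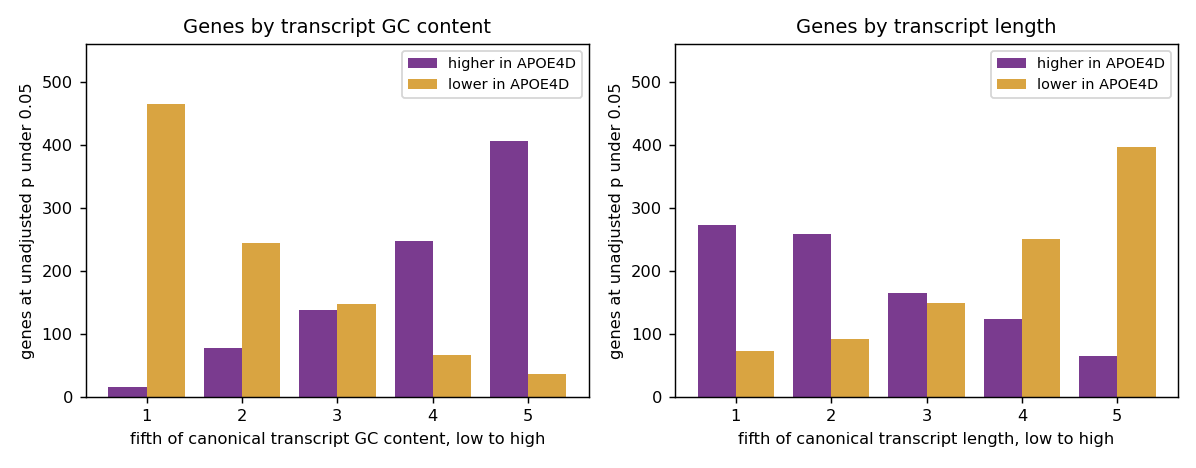
Genes at unadjusted p under 0.05 in APOE4D against APOE4 brains (y axis, number of genes), by 5 equal bins of GC content (left) and of length (right) of the canonical transcript, for genes at or above 1 in mean log2 CPM. Purple bars are genes higher in APOE4D and yellow bars genes lower; 16 were higher and 465 lower in the lowest GC bin, and 406 higher and 36 lower in the highest.

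Among the genes with the smallest p-values was an enzyme of lipid storage. Dgat2 stood at 72.8, 72.7, 70.5, 68.9 and 71.6 CPM in the APOE4D mice, against 58.1, 65.1, 61.5, 64.003 and 58.8 CPM in the APOE4 mice (log2 fold change 0.21, standard error 0.04, adjusted p = 0.186). The groups did not overlap for Dgat2, which encodes an enzyme that makes triglycerides from diacylglycerol, while over all genes tested they did not overlap in the higher direction for 1.52% and in the lower direction for 1.25% (2.77% in either).

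The other genes named for small p-values had groups that did not overlap, though none passed the threshold. On the higher side, Tspoap1 stood at 332, 341, 344, 326 and 313 CPM in the APOE4D mice, against 285, 304, 275, 296 and 301 CPM in the APOE4 mice (log2 fold change 0.18, adjusted p = 0.229). Tspoap1 encodes a scaffold of the presynaptic active zone. Epha8, an ephrin receptor, ranged from 11.3 to 13.9 CPM in APOE4D against 8.05 to 10.9 CPM in APOE4 (log2 fold change 0.40, adjusted p = 0.229). Nphp4, a component of the ciliary transition zone, ranged from 19.5 to 21.3 CPM in APOE4D against 16.8 to 18.9 CPM in APOE4 (log2 fold change 0.22, adjusted p = 0.229). Cdc25b, a cell cycle phosphatase, and Cpxm1, a carboxypeptidase-like protein, had log2 fold changes of 0.24 and 0.40.

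On the lower side, Nefm stood at 195, 209, 215, 207 and 211 CPM in the APOE4D mice, against 219, 227, 259, 241 and 255 CPM in the APOE4 mice (log2 fold change -0.21, adjusted p = 0.229). Nefm is the medium neurofilament subunit of axons, and every APOE4D mouse lay under every APOE4 mouse. Kctd4 stood at 31.8, 25.4, 30.6, 26.7 and 30.9 CPM in the APOE4D mice, against 33.1, 36.1, 34.8, 36.1 and 34.8 CPM in the APOE4 mice (log2 fold change -0.27, adjusted p = 0.229). The mitochondrial transfer RNA for methionine, mt-Tm, ranged from 5.71 to 8.24 CPM in APOE4D against 8.51 to 10.2 CPM in APOE4 (log2 fold change -0.51, adjusted p = 0.186). Rab8b, a small GTPase of vesicle traffic, Ric1, part of a Golgi exchange factor, Ubxn2b, a cofactor of the segregase p97, Pot1b, which binds telomeric single strands, and the transcript 2610005L07Rik had log2 fold changes of -0.21, -0.19, -0.24, -0.31 and -0.60.

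The levels were also set beside those of the other genotypes. For the 16 genes with the smallest p-values, 8 of each sign, the APOE4D mean lay within the range of the 10 APOE3 and APOE2 libraries in 14 (87.5%) and the APOE4 mean in 8 (50.0%), against 91.1% and 84.3% of all genes tested. Kctd4 was at 25.3 to 29.9 CPM in APOE3 and 25.6 to 29.9 CPM in APOE2. This range holds the APOE4D mean of 29.1 CPM and not the APOE4 mean of 34.985 CPM. Every APOE4 mouse lay above it, as did the APOE4D mice F12M, FH68 and FH51 (31.8, 30.6 and 30.9 CPM). Dgat2 was at 66.1 to 73.4 CPM in APOE3 and 64.9 to 74.5 CPM in APOE2, and the APOE4D mice were at 68.9 to 72.8 CPM. Over the 2293 genes at unadjusted p under 0.05, the APOE4D mean was the nearer in 76.6%, against 60.6% of all genes tested. These are descriptions, since both sets of genes were chosen for a difference between APOE4D and APOE4 in the same libraries.

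The circadian clock list held opposite shifts within 1 loop. Of its 22 genes, 4 were higher and 4 lower at unadjusted p under 0.05, where 5.28% and 5.62% of all genes tested were. The median log2 fold change was 0.01 (0.04 with the trend removed, when the counts were again 4 higher and 4 lower). In this loop CLOCK and BMAL1, the product of Arntl, switch on genes through E-boxes, among them the Per, Cry, Nr1d1, Dbp and Ciart genes, whose products feed back on the pair or on other targets. DBP acts through D-boxes, and NR1D1 represses Arntl through ROR elements. The labels and methods do not state the hour at which tissue was taken, so hour and group cannot be told apart.

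The upstream sequences of 4 clock genes are shown to set these elements beside the values. They are the 250 bases before the annotated start in RefSeq on GRCm38.p6, read in the sense of the gene. They lie at chr3:95882229-95882478 (minus strand), chr7:45704997-45705246 (plus strand), chr4:151044666-151044915 (minus strand) and chr7:113207215-113207464 (plus strand). Capitals mark an E-box (CACGTG), a D-box (TTATGTAA or its reverse complement TTACATAA) or a ROR element (TAGGTCA or its reverse complement TGACCTA), which do not overlap here.
Ciart: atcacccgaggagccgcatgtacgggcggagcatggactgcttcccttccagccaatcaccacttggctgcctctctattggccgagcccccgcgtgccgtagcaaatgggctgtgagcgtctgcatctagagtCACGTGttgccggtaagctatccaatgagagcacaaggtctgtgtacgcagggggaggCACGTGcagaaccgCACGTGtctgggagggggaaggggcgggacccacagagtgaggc
Dbp: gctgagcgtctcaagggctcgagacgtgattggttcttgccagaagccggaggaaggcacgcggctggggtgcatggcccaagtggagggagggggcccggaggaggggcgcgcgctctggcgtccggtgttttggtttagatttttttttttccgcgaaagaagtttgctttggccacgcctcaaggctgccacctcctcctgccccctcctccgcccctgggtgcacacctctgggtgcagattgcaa
Per3: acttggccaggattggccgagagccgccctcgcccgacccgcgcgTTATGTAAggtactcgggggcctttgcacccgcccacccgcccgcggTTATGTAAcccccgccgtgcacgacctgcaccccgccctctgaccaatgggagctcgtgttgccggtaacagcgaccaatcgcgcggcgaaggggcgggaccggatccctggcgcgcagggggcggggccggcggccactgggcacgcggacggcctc
Arntl: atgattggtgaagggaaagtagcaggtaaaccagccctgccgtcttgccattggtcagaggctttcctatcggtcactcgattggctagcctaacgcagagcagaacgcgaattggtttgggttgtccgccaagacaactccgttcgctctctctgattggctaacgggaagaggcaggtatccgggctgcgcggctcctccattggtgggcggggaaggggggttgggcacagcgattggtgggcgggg
Ciart held 3 E-boxes and Per3 held 2 D-boxes, while no such letters stood in the windows of Dbp and Arntl. Across 32851 windows of this length, 6.02% held an E-box, 0.819% a D-box and 2.23% a ROR element. Of the 18 clock genes with a window, 5 held an E-box, 1 a D-box and 1 a ROR element.

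Among the output genes, Ciart stood at 16.2, 17.8, 15.6, 24.4 and 14.3 CPM in the APOE4D mice, against 10.1, 13.6, 8.84, 10.9 and 9.33 CPM in the APOE4 mice (log2 fold change 0.75, standard error 0.21, adjusted p = 0.284). Ciart encodes a repressor of the CLOCK and BMAL1 pair, and the groups did not overlap. Dbp stood at 102, 103, 99.2, 124 and 97.2 CPM in the APOE4D mice, against 66.9, 90.7, 63.8, 83.6 and 60.2 CPM in the APOE4 mice (log2 fold change 0.52, standard error 0.17, adjusted p = 0.335). The groups did not overlap for Dbp either, a transcription factor of the PAR family, although F78N of the APOE4 group was the nearest to the APOE4D mice. Nr1d1 stood at 91.4, 109.7, 90.9, 118 and 104 CPM in the APOE4D mice, against 78.4, 99.6, 59.01, 104 and 62.04 CPM in the APOE4 mice (log2 fold change 0.35, adjusted p = 0.382). Nr1d1, also known as Rev-erb alpha, overlapped between the groups, with F58M and FH66 of the APOE4 mice the lowest. Cry2, a repressor, ranged from 162 to 172 CPM in APOE4D against 152 to 162 CPM in APOE4 (log2 fold change 0.09, adjusted p = 0.449).

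Clock and Arntl of the positive arm lay on the other side, while Npas2 and Rora of the list had log2 fold changes of 0.01 and -0.05. Clock stood at 82.3, 72.4, 79.9, 78.1 and 80.2 CPM in the APOE4D mice, against 90.2, 84.1, 90.8, 91.4 and 90.2 CPM in the APOE4 mice (log2 fold change -0.19, standard error 0.05, adjusted p = 0.254). Arntl stood at 28.7, 29.4, 31.1, 27.02 and 31.1 CPM in the APOE4D mice, against 36.3, 34.1, 35.2, 33.1 and 36.3 CPM in the APOE4 mice (log2 fold change -0.25, adjusted p = 0.356). Clock and Arntl did not overlap between the groups, and in the fit of 10 libraries Clock had adjusted p = 0.0178 and Arntl adjusted p = 0.00992. With the trend removed from those 10 libraries, Clock had adjusted p = 0.274 and Arntl adjusted p = 0.0278. With it removed from all 20, Clock had a log2 fold change of -0.09, while Arntl stood at -0.22 and Ciart at 0.72. Rorb, an activator that binds ROR elements, ranged from 44.4 to 48.1 CPM in APOE4D against 46.1 to 54.3 CPM in APOE4 (log2 fold change -0.15, adjusted p = 0.349), and Cry1, a repressor, from 12.6 to 17.6 CPM in APOE4D against 14.6 to 22.3 CPM in APOE4 (log2 fold change -0.24, adjusted p = 0.443). Nr1d1, Cry2, Cry1, Arntl, Per3, Npas2 and Rora were picked for mention after their values were seen. Per3 was at 58.98 ± 5.48 CPM in APOE4D and 51.5 ± 2.17 CPM in APOE4 (SD, n = 5 mice each, log2 fold change 0.20, adjusted p = 0.489). Per1 and Per2 overlapped widely between the groups, with log2 fold changes of 0.25 and -0.18. In both ID series taken alone, Nr1d1 and Cry1 had the same signs. Ciart, Dbp, Clock and Arntl did too, but with groups that did not overlap this was fixed in advance and adds no support.

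**Figure D2:**
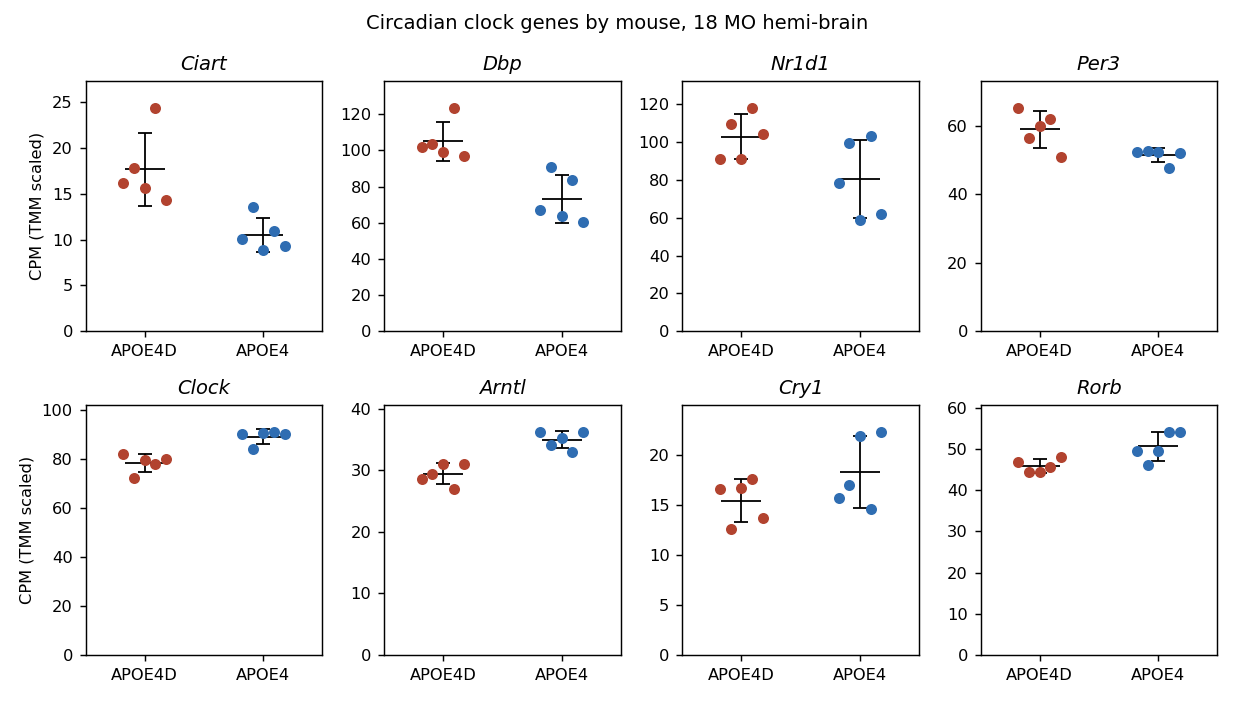
Level of 8 clock genes (y axis, CPM scaled by TMM) in each APOE4D mouse (red, left) and each APOE4 mouse (blue, right), with the group mean (bar) and SD (whiskers, n = 5 each). Ciart and Dbp were higher in every APOE4D mouse than in any APOE4 mouse, and Clock and Arntl lower in every one.

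Chaperones of the cytosol and the endoplasmic reticulum leaned lower in APOE4D. Of 43 genes of the heat shock and unfolded protein response, 1 was higher and 11 lower at unadjusted p under 0.05. Over all genes tested, 5.28% were higher and 5.62% lower. In the list, 37 had a negative fold change. The list median was -0.10 (-0.10 with the trend removed), against -0.00090 over all genes tested. Hsph1 stood at 231, 242, 221, 243 and 245 CPM in the APOE4D mice, against 274, 258, 309, 260.1 and 283 CPM in the APOE4 mice (log2 fold change -0.23, standard error 0.06, adjusted p = 0.254). Hsph1 encodes an exchange factor for HSP70, and the groups did not overlap. Hspa4, of the same family, ranged from 194 to 209 CPM in APOE4D against 213 to 232 CPM in APOE4 (log2 fold change -0.14, adjusted p = 0.23). Hsp90aa1, the inducible cytosolic HSP90, which was picked after its values were seen, ranged from 366 to 406 CPM in APOE4D against 407 to 449.9 CPM in APOE4 (log2 fold change -0.15, adjusted p = 0.28).

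Chordc1, a co-chaperone of HSP90, was at 71.6 ± 5.33 CPM in APOE4D and 87.5 ± 8.75 CPM in APOE4 (SD, n = 5 mice each), and Pdia3, a disulfide isomerase of the endoplasmic reticulum, at 181 ± 5.17 CPM in APOE4D and 202 ± 18.03 CPM in APOE4, both with groups that overlapped. In the fit of 10 libraries, 5 members passed, all lower (Hspa4, Hspa4l, Hspa8, Hsp90aa1 and Hsph1), where 0.592% of all genes did so. With the trend removed from those 10 libraries, Hspa8 passed (adjusted p = 0.00681), while Hspa4, Hspa4l, Hsp90aa1 and Hsph1 did not. One APOE4 mouse, F58M, was the highest of the 10 for the list. Its list score, the mean log2 CPM of the members relative to the mean of the 10 mice, was 0.22, against -0.04 to 0.05 in the other 4 APOE4 mice and -0.07 to -0.01 in the APOE4D mice. Leaving out single mice moved the median over -0.11 to -0.05, and the value nearest to 0 was that without F58M.

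Genes of striatal projection neurons leaned higher. Of 28 such genes, 9 were higher and 1 lower at unadjusted p under 0.05, where 5.28% and 5.62% of all genes tested were. Of the 28, 6 were higher without overlap, against 1.52% of all genes. The median was 0.07 (0.05 with the trend removed, with 5 higher and 1 lower). Ppp1r1b stood at 326, 318, 327, 304 and 298 CPM in the APOE4D mice, against 274, 286, 259.9, 274 and 273 CPM in the APOE4 mice (log2 fold change 0.20, standard error 0.05, adjusted p = 0.229). Ppp1r1b encodes DARPP-32, the phosphatase inhibitor through which dopamine acts on these neurons, and it passed in the fit of 10 libraries (adjusted p = 0.00556) and with DESeq2 (adjusted p = 0.0498). Pde1b stood at 321, 314, 333, 305 and 317 CPM in the APOE4D mice, against 278, 289, 288, 295 and 297 CPM in the APOE4 mice (log2 fold change 0.13, adjusted p = 0.229). Pde1b, a calmodulin-dependent phosphodiesterase, and Gng7, a G protein subunit, did not overlap between the groups, while Rgs9, which ends G protein signals at dopamine receptors, did. How the hemi-brains were cut could not be read from the files, and the part of the cut in this shift was not tested. The cortical and hippocampal list had 2 of 37 genes higher and 6 lower and a median of -0.02 (-0.02 with the trend removed).

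Voltage-gated channels and clustered protocadherins leaned lower. Among 51 channel genes, 1 was higher and 10 lower at unadjusted p under 0.05, where 5.28% and 5.62% of all genes tested were. With the trend removed, 1 was higher and 6 lower, where 4.96% and 4.12% of all genes were. The channel median of -0.04 became -0.02 with the trend removed. This median before the removal was -0.08 in the mice with FH identifiers and 0.0073 in the others. Its sign thus differed between the ID series, a difference that, like those of other lists, was not tested. The FH mice were FH85, FH68 and FH51 of APOE4D and FH78 and FH66 of APOE4. The others were F12M and F19M of APOE4D and F95K, F78N and F58M of APOE4. Every list median by ID series thus rested on few mice. Kcna1 stood at 24.6, 22.2, 23.9, 26.3 and 18.8 CPM in the APOE4D mice, against 24.3, 30.7, 29.6, 34.9 and 30.6 CPM in the APOE4 mice (log2 fold change -0.37, adjusted p = 0.326). Kcna1 and Kcna3 encode potassium channels of the Shaker family, and Kcna3 was at 1.103 ± 0.283 CPM in APOE4D and 1.76 ± 0.209 CPM in APOE4 (SD, n = 5 mice each). Scn3a, a sodium channel, and Kcnb2, a delayed rectifier, had log2 fold changes of -0.15 and -0.17. Protocadherins give neurons their surface identity. Of 56 measured, 0 were higher and 8 lower, with a median of -0.11, or -0.07 with the trend removed. Their similar exons share reads, so single members are uncertain. The median was -0.19 in the mice with FH identifiers and 0.02 in the others, so here too the sign differed.

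**Figure D3:**
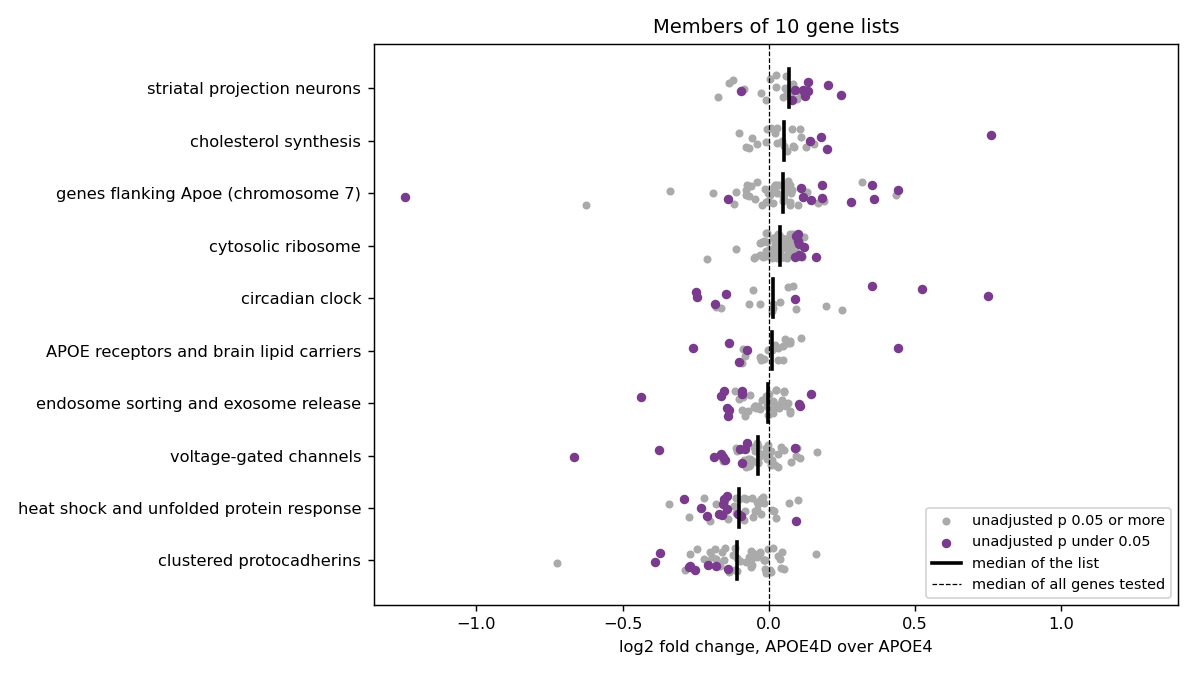
Log2 fold change of APOE4D over APOE4 (x axis) for each tested member of 10 gene lists (rows); purple points have an unadjusted p under 0.05, the black bar is the list median and the dashed line the median of all genes tested. The medians run from 0.07 for striatal projection neurons to -0.11 for clustered protocadherins.

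At the replaced locus, where 3 neighbouring genes were tested one by one, Apoc1 was higher in APOE4D, while Apoe and Tomm40 did not pass. Apoe stood at 37.04, 39.7, 42.1, 36.7 and 42.6 CPM in the APOE4D mice, against 33.8, 38.6, 37.5, 36.7 and 41.5 CPM in the APOE4 mice. These are reads assigned to the mouse gene at chr7:19696244-19701310, which human APOE replaces, and the groups overlapped (exact two-sided permutation p = 0.27, or 0.405 after Benjamini-Hochberg adjustment over 3 genes). Apoc1 stood at 2.99, 3.82, 3.67, 3.24 and 3.15 CPM in the APOE4D mice, against 2.72, 2.09, 2.07, 2.69 and 2.78 CPM in the APOE4 mice. Apoc1, at chr7:19689480-19692659, encodes apolipoprotein C1. Every APOE4D mouse was above every APOE4 mouse, and the exact permutation p was 0.00794, the smallest that 5 against 5 mice allow (0.0238 adjusted). Apoc1 rested on 68 to 138 reads per library, and in the fit over all genes the adjusted p was 0.335. Its mean was 3.37 CPM in APOE4D and 2.47 CPM in APOE4. In APOE3 the mean was 3.69 CPM (range 3.09 to 4.94) and in APOE2 3.63 CPM (range 2.47 to 4.69). Tomm40, the channel through which proteins enter mitochondria, at chr7:19701313-19715442, was at 72.5 ± 2.61 CPM in APOE4D and 73.6 ± 1.94 CPM in APOE4 (SD, n = 5 mice each, exact permutation p = 0.444).

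Of 55 genes that flank Apoe, 9 were higher and 2 lower at unadjusted p under 0.05, where 5.28% and 5.62% of all genes tested were. The list median was 0.05. This stretch is rich in GC (median 57.6%), and with the trend removed the median was -0.0017 with 7 higher and 4 lower. Eml2, a microtubule-binding protein, was the member with the smallest p and did not overlap between the groups, at 197 ± 13.9 CPM in APOE4D and 174 ± 7.501 CPM in APOE4 (SD, n = 5 mice each). Ercc2, a helicase of DNA repair, had a log2 fold change of 0.14.

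Receptors and carriers through which APOE acts had shifts in both directions. Of 23, 1 was higher, Apoc1, and 4 were lower at unadjusted p under 0.05, where 5.28% and 5.62% of all genes tested were. With the trend removed, 2 were higher and 2 lower. The list median was 0.01 before and 0.0097 after the trend was removed. Sorl1 stood at 247, 247, 237, 251 and 256 CPM in the APOE4D mice, against 275, 267, 273, 269.6 and 276 CPM in the APOE4 mice (log2 fold change -0.14, adjusted p = 0.312). Sorl1 encodes a sorting receptor for the amyloid precursor protein, and the groups did not overlap. Abca1 stood at 36.6, 35.5, 43.2, 34.6 and 37.2 CPM in the APOE4D mice, against 40.4, 44.98, 43.4, 47.98 and 47.2 CPM in the APOE4 mice (log2 fold change -0.26, adjusted p = 0.328). Abca1, the exporter that loads lipid onto APOE, and Sorl1 both passed in the fit of 10 libraries, at adjusted p of 0.0249 and 0.026, and neither did so in the fit of all 20 or in the 10 libraries with the trend removed (adjusted p = 0.119 and 0.132). Lrp8, an APOE receptor at synapses, was at 74.4 ± 1.43 CPM in APOE4D and 79.99 ± 3.83 CPM in APOE4 (SD, n = 5 mice each) without overlap. In the cholesterol list, 4 of 25 genes were higher and 0 lower, with a median of 0.05 before and 0.05 after the trend was removed. Among the higher genes were Lss, lanosterol synthase, at 43.6 ± 1.34 CPM in APOE4D and 38.5 ± 2.603 CPM in APOE4, and the mevalonate kinases Mvk and Pmvk, with log2 fold changes of 0.20 and 0.14.

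The lists of cytosolic ribosome and oxidative phosphorylation genes had medians of opposite sign in the FH mice and the others. Of 79 cytosolic ribosomal protein genes, 9 were higher and 0 lower at unadjusted p under 0.05, with a median of 0.04, 0.02 with the trend removed, 0.10 in the FH mice and -0.03 in the others. Rplp0, the stalk protein, did not overlap between the groups, at 142 ± 3.79 CPM in APOE4D and 132 ± 3.23 CPM in APOE4 (SD, n = 5 mice each). Nuclear genes of oxidative phosphorylation had 5 of 75 higher and 2 lower, where 5.28% and 5.62% of all genes were, with a median of 0.03, 0.02 with the trend removed, 0.09 in the FH mice and -0.03 in the others. Genes of endosome sorting and exosome release had 3 of 52 higher and 8 lower with a median near 0 (-0.0046). With the trend removed, 1 was higher and 2 lower with a median of -0.0058. Before the removal, the endosome median was -0.0089 in the FH mice and -0.0080 in the others. Among them Vps25 and Chmp6, both of the ESCRT machinery, had log2 fold changes of -0.44 and 0.14.

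Lists of glia and immune genes had few members past an unadjusted p of 0.05. Over all genes tested, 5.28% were higher and 5.62% lower. Microglia had 0 of 31 higher and 1 lower, with a median of -0.05 (-0.04 with the trend removed). Reactive astrocytes had 0 of 22 higher and 1 lower, with a median of -0.10 (-0.11), and the interferon list 0 of 43 higher and 1 lower, with a median of -0.03 (-0.02). The microglial median was 0.09 in the FH mice and -0.14 in the others, so its sign differed between the ID series. Endothelium had 0 of 25 higher and 2 lower, with a median of -0.04 (-0.04), and oligodendrocytes and myelin 0 of 28 higher and 3 lower (Ermn, Ugt8a and Anln), with a median of -0.01 (-0.04). Among single markers picked after their values were seen, the tight junction gene Cldn5 ranged from 31.5 to 47.8 CPM in APOE4D against 46.3 to 60.6 CPM in APOE4 (log2 fold change -0.38, adjusted p = 0.398), and the myelin gene Mbp, against the direction of those 3 members of its list, from 3747 to 4009 CPM in APOE4D against 3271 to 3709 CPM in APOE4 (log2 fold change 0.13, adjusted p = 0.528). Of all 50 lists, 0 had a member past the threshold and 0 had scores that separated the 2 groups of mice.

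The mice of the 2 groups varied to a like degree over whole libraries. The common biological coefficient of variation, the spread between mice beyond counting noise, was 0.0513 in APOE4D and 0.0541 in APOE4. Over 14058 genes at or above 1 in mean log2 CPM, the median SD of log2 CPM was 0.0751 in APOE4D and 0.0777 in APOE4, and the APOE4D spread was the larger in 48% of genes. Between 2 mice, the median absolute log2 difference had a median of 0.0778 over the 10 APOE4D pairs, 0.0839 over the 10 APOE4 pairs and 0.0913 over the 25 pairs across groups. The first principal component held 22.4% of the variance, with the APOE4D mice at 1.67 to 11.2 and the APOE4 mice at -11.0 to 1.09, so that the groups lay side by side without overlap. F78N of the APOE4 group and FH51 of the APOE4D group were the closest across the groups on it. In the pair differences the groups were not cleanly apart. F78N differed from the APOE4D mice by 0.0691 (F19M) to 0.0828 (FH85). It differed from its own group by 0.0765 (F58M) to 0.0887 (F95K).

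**Figure D4:**
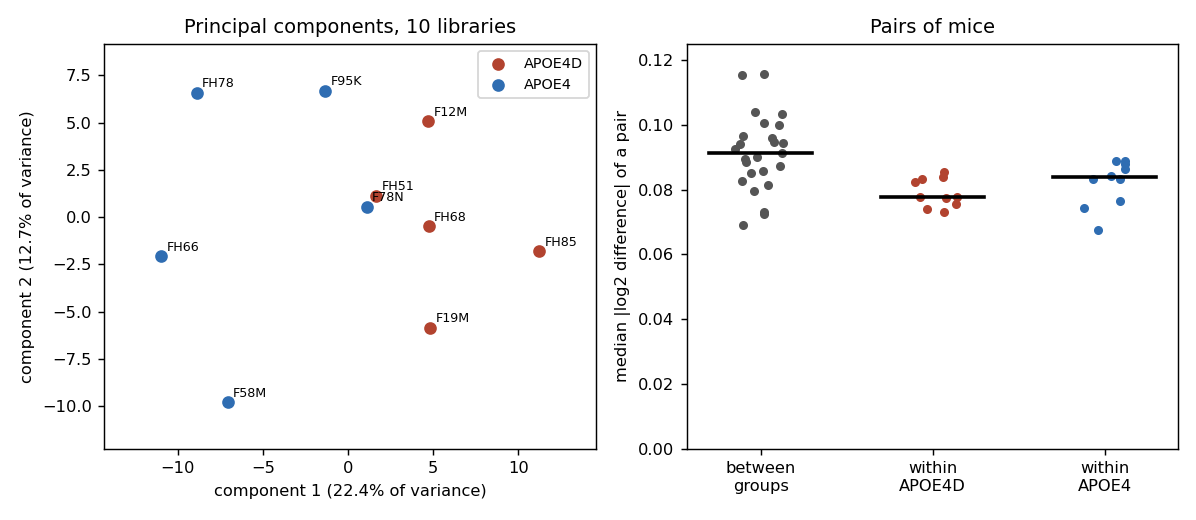
Left, the first 2 principal components of the 10 libraries over 14058 genes (red APOE4D, blue APOE4, labelled by mouse). Right, the median absolute log2 difference of each pair of mice (y axis) across groups, within APOE4D and within APOE4, with the median of each set as a bar at 0.0913, 0.0778 and 0.0839.

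No single gene passed a test of unequal spread, a limma fit on absolute deviations from the group mean. The smallest adjusted p was 0.368 over 21041 genes, and at unadjusted p under 0.05 the spread was larger in APOE4D for 811 genes (3.85%) and in APOE4 for 713 (3.39%). A test of 5 against 5 mice detects only large differences of spread, so the count of 0 does not show that the spreads were alike. It moved to 12 when FH68 was left out.

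Lists of activity, interferon and monoamine genes varied widely between mice. For 39 immediate early genes, which neurons switch on within minutes of activity, the scores of the APOE4D mice ran from -0.20 in F12M to 0.39 in F19M, and those of the APOE4 mice from -0.28 in F78N to 0.21 in FH66. Fos stood at 5.49, 18.1, 12.8, 32.5 and 6.05 CPM in the APOE4D mice, against 14.5, 6.48, 18.7, 7.88 and 17.7 CPM in the APOE4 mice, so that F19M was the highest and F12M the lowest. Egr2, of the same class, ranged from 0.844 to 7.74 CPM in APOE4D against 1.25 to 4.91 CPM in APOE4. Homer1, a scaffold of the synapse with an activity-induced short form, was at 99.6 ± 13.8 CPM in APOE4D and 145 ± 39.5 CPM in APOE4 (SD, n = 5 mice each, log2 fold change -0.55, adjusted p = 0.45). Gadd45g, a stress-responsive gene of the list, did not overlap, at 11.6 to 14.9 CPM in APOE4D against 10.03 to 11.1 CPM in APOE4 (log2 fold change 0.33, adjusted p = 0.23).

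The score of the interferon list was more widely spread in APOE4D, and no difference in list spread was tested. It had an SD of 0.24 in APOE4D and 0.11 in APOE4. Of its 43 members, 35 had the larger SD in APOE4D, against 50.4% of all genes tested. The members are not replicates. The same lean was seen in 65 of 79 cytosolic ribosome genes and 51 of 75 nuclear genes of oxidative phosphorylation. On the interferon list, FH85 (0.31) and F12M (0.15) were the highest APOE4D mice and FH68 (-0.25) the lowest. Genes of monoamine neurons varied more in APOE4, with a score SD of 0.05 in APOE4D and 0.27 in APOE4, and 5 of 19 members had the larger SD in APOE4D. Slc6a3 stood at 6.15, 8.24, 9.76, 8.38 and 9.55 CPM in the APOE4D mice, against 10.2, 6.83, 8.96, 17.1 and 10.2 CPM in the APOE4 mice. Slc6a3, the dopamine transporter, was highest in FH78, whose list score was 0.44, and how much midbrain each hemi-brain held was not tested. Blood genes had a score of 0.50 in FH51 and -0.37 in FH68.

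**Figure D5:**
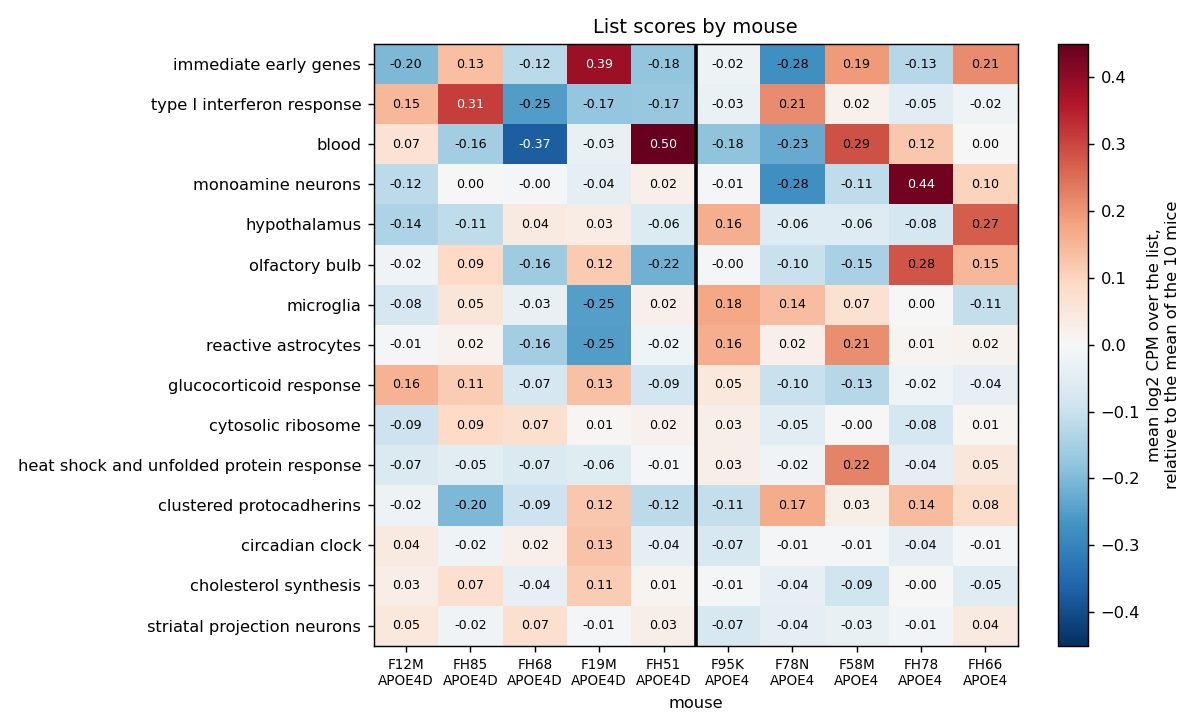
List score (colour and printed value, mean log2 CPM over the members relative to the mean of the 10 mice) for 15 gene lists (rows) in each APOE4D mouse (left of the line) and each APOE4 mouse (right). Immediate early, interferon, blood and monoamine lists span the widest range between mice, while clock, cholesterol and striatal scores lie between -0.09 and 0.13.

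Single genes with the widest spread between mice included a hormone and several noncoding or duplicated genes, whose reads can be split with near-identical copies. Prl stood at 0.302, 3.74, 0.292, 0.0275 and 0.221 CPM in the APOE4D mice, against 32.6, 1.45, 0.0305, 0.324 and 0.0856 CPM in the APOE4 mice. Prl, the pituitary hormone prolactin, was thus high in 1 APOE4 mouse, F95K, while the pituitary genes Gh and Cga were at 0 to 1.397 CPM in the 10 libraries. The pseudogene Ubb-ps ranged from 1.18 to 19.1 CPM in APOE4D against 1.26 to 16.04 CPM in APOE4, and Eps8l1, an actin regulator, averaged 11.1 ± 6.23 CPM in APOE4D and 9.09 ± 4.12 CPM in APOE4 (SD, n = 5 mice each). Col6a4, a collagen chain, ranged from 1.84 to 14.1 CPM in APOE4D against 6.21 to 10.5 CPM in APOE4, and 1700016P03Rik from 2.87 to 14.1 CPM in APOE4D against 2.62 to 7.25 CPM in APOE4. The short noncoding RNA Rn7sk ranged from 0.851 to 9.86 CPM in APOE4D against 1.46 to 9.76 CPM in APOE4, Gm23935 from 12.7 to 51.5 CPM in APOE4D against 11.5 to 62.4 CPM in APOE4 and Erdr1 from 1.68 to 4.002 CPM in APOE4D against 2.09 to 6.94 CPM in APOE4, while Ighg2c stayed under 0.2 CPM in each of the 10.

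None of the genes that marked APOE4 brains in earlier results on these libraries passed the threshold between APOE4D and APOE4. Since 0 of all 21041 genes tested did so, this says nothing particular about the list. The list was chosen in part on the same APOE4 mice, so it is not independent of them. It holds 15 genes. Serpina3n stood at 129, 134, 136, 115 and 130.3 CPM in the APOE4D mice, against 133, 134, 129, 132 and 124 CPM in the APOE4 mice, with the groups overlapping, for a gene that reactive astrocytes secrete. At unadjusted p under 0.05, Tmc4 and Kcna1 were lower (log2 fold changes of -0.23 and -0.37) and Sytl1 and Trappc6a higher (0.37 and 0.18). That is 2 higher and 2 lower of 15, where 5.28% and 5.62% of all genes tested were. The other 11 genes of the list, among them Wdfy1, Rdh13, Gpi-ps, Aim2, Dnah6, Tmem72, Lyrm7, Igtp, Oscar and Pirb, had an unadjusted p of 0.05 or more.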

How the data were processed

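RNA-seq of 20 left hemi-brains was used as the raw counts per gene symbol that the authors deposited. Per the submitters' processing notes, STAR 2.7.0 and featureCounts were among the tools and GRCm38 was the build. Whether counting used strand is not stated. The deposited normalized counts and the authors' tables of fold changes and p-values for other genotypes were not used. Totals were 32404258 to 51960932 reads per library, and the precision of each fold change is given as its standard error.

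Genes above 0.1 CPM in more than 40% of libraries were kept, scaled by TMM and fitted over all 20 libraries and 4 groups with edgeR 4.0.16 (quasi-likelihood test, Benjamini-Hochberg adjustment, threshold 0.05) in R 4.3.3. Covariates taken from the reads were not used here. Spread was tested with limma 3.58.1, 3 genes at the replaced locus by an exact permutation test. Alternatives were DESeq2 1.42.0, limma-voom, sva 3.50.0 (1 surrogate variable), other filters and scalings, thinning, ID series, a loess trend over transcript length and GC, and leaving out mice. The scripts were tested on simulated data. Figures were drawn with matplotlib 3.10.9.

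Groups came from the labels. All genes past the threshold, or else the 8 of each sign with the smallest p and a mean log2 CPM of at least 0, were named, with Apoe, Apoc1 and Tomm40, up to 4 members of each list with the smallest p, the 8 genes of widest spread per group and the list of earlier APOE4 genes. Results of some of these genes are not reported here. The groups compared and the 50 gene lists were chosen with earlier results of these data known. Per list, counts and medians are given and no set was tested. Nothing beyond the mouse ID, with its F or FH series, separates the mice of a group. The p-values of the main fit rest on the spread between mice, pooled over the 4 groups and 20 libraries.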

Additional observations from a re-analysis of the deposited data

Results flagged for a closer look

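Of 182 groups of 5 mice checked, 12 held a mouse far from the other 4, and chance alone marks about 1 group in 20. Among list scores, FH51 stood above the other APOE4D mice for the heat shock and unfolded protein response (-0.005262, against -0.06594 to -0.04853), and F78N above the other APOE4 mice for the interferon response (0.2118, against -0.05028 to 0.02017).

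Among clock genes, Dbp was at 123.6 CPM in F19M, above the other APOE4D mice. Clock was at 84.07 CPM in F78N and Per3 at 47.66 CPM in FH78, each below the other APOE4 mice. Among channels, Kcna3 was at 1.593 CPM in F19M, above the other APOE4D mice, and at 1.401 CPM in F95K, below the other APOE4 mice. Kcnb2 was at 22.75 CPM in FH51, above the other APOE4D mice.

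Prl was at 3.736 CPM in FH85, above the other APOE4D mice, and at 32.59 CPM in F95K, above the other APOE4 mice. Ubb-ps was at 16.04 CPM in F78N and Gm23935 at 62.40 CPM in F58M, each above the other APOE4 mice, and reads of both can be split with near-identical copies.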

How the results depend on the processing

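Several list medians changed sign. With only F animals the medians were -0.03 for the cytosolic ribosome, -0.03 for oxidative phosphorylation, 0.02 for clustered protocadherins, 0.0073 for voltage-gated channels and -0.04 for APOE receptors, and with only FH animals 0.09 for microglia, 0.07 for the interferon list and -0.0082 for the clock. With 1 surrogate variable they were -0.02 for the ribosome, -0.0084 for oxidative phosphorylation and -0.01 for APOE receptors, and with the trend removed -0.0017 for the genes flanking Apoe. The medians of the heat shock, striatal and cholesterol lists kept their sign in these settings and with each mouse left out. Those of other lists did so too, among them reactive astrocytes and the glucocorticoid response. The count of genes past the threshold, 0 over the 20 libraries, was 10 with no filter on low counts, 34 with DESeq2, 210 with only the 10 APOE4D and APOE4 libraries, 46 with those 10 libraries and the length and GC trend removed, and 1 with only F animals. Of list genes past the threshold, 3, 6, 32, 12 and 1 came from these same settings. Leaving out single mice gave 0 to 1 gene past the threshold and 0 to 1 list gene. The 1 gene was found without FH68, without FH78 or without F19M (mt-Tm in the last). The spread test gave 0 to 12 genes when single mice were left out. Without the APOE3 mouse low in Xist the count was 0. That setting and the 10 libraries with the trend removed were chosen after seeing the data. At unadjusted p under 0.05, the 2293 genes became 713 with only F animals, 1557 with 1 surrogate variable and 3318 with only the 10 libraries. The causes of these changes were not tested, and the fits of F animals and of the 10 libraries also held fewer mice. No paired analysis was possible because the labels give mouse identifiers and no replicate numbers shared between the groups. Depth limits genes with a mean log2 CPM under 1, where the median standard error was 0.314.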
